A study of Mus musculus with 16 samples.

Results

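The cerebral cortex of wild-type mouse pups was compared between the day of birth and the end of the first postnatal week. The comparison used the 8 arrays of wild-type cortex among the 16 arrays of the series, 4 from postnatal day 0 (P0) and 4 from postnatal day 7 (P7). They were chosen by genotype, age and replica number in the sample titles alone, so no measured value entered the choice. Wild type here means Dyrk1a+/+, with both copies of the gene of the kinase DYRK1A intact, and the labels name no treatment. The other 8 arrays, 4 at each age, came from Dyrk1a+/- pups, which carry 1 intact copy. These arrays served as a second set for the same age difference. They also entered the choice of probe sets, the minimum on mean level and the estimate of spread behind the p-values. Each array was hybridised with RNA from the cortex of 1 mouse, so all cortical cell types were measured together, and the labels name no strain, litter or sex.

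In the mouse, most neurons of the cortex have been born by birth, and the last of them are still settling into the upper layers. During the first postnatal week axons reach their targets, the first synapses form in large numbers, and dividing progenitors turn from neurons to glia. Astrocytes multiply and mature, oligodendrocyte precursors spread through the tissue, and the first myelin genes are switched on. Inhibitory transmission changes as well, because neurons begin to export chloride through the transporter KCC2.

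Values are log2 signals of Affymetrix probe sets, so a difference of 1 is a 2-fold difference. The brightest probe set on average stands for a gene that has several, and 12801 genes passed a minimum on mean level. Differences are P7 minus P0, over 4 arrays at each age, and their standard error (SE) comes from limma. A gene is said to have risen or fallen where limma gave a Benjamini-Hochberg adjusted p under 0.05 over all 12801 genes, and otherwise did not pass. Levels of different probe sets are not compared with each other.

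Arrays of the same age were alike. Across genes, r lay between 0.979 and 0.992 within P0, between 0.985 and 0.995 within P7, and between 0.951 and 0.965 across the ages. The first principal component of the 8 arrays held 64.6% of the variance and separated the ages, and the second held 17.2% and separated replicates 1 and 2 from replicates 3 and 4 at both ages. That split follows the last digit of a code in the sample descriptions, whose meaning the labels do not give. All 5236 genes that changed had the same sign in both subsets. They were called on these same arrays, so that agreement was nearly fixed by the call and does not test the split. The Y-linked gene Eif2s3y was high on 1 array of each age (log2 10.28 or more) and at 3.49 or less on the others, so sex was spread alike over the ages. Markers of the labelled tissue read above the minimum on mean level (5.15) on every array of both ages, although signal over background is unknown. The cortical selector gene Emx1 read 7.71, 7.39, 7.73 and 7.18 at P0 and 7.85, 7.75, 7.95 and 7.58 at P7, and the deep-layer gene Fezf2 read 8.06, 7.89, 8.40 and 7.63 at P0 and 8.07, 8.07, 8.12 and 7.59 at P7. Neither passed the test of the age difference (adjusted p = 0.0866 and 0.919, limma), although Emx1 did with the replicate number as a block (0.28, adjusted p = 0.0294). The other probe set of Emx1 did not share its sign.

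Of the 12801 genes, 2874 rose (22.5%) and 2362 fell (18.5%), together 40.9%. The 4 values of P7 did not overlap the 4 of P0 in 4847 genes (37.9%). Large differences were mostly increases: 518 genes rose at least 2-fold (4.05%) and 167 fell at least 2-fold (1.3%), and at 4-fold the counts were 51 and 8. In 668 of these 685 genes the values of the 2 ages did not overlap. The median difference over all genes was 0.02 and the median SE 0.12. Among the genes named below that passed, 10 had a P0 mean under the minimum of 5.15 set on the mean of all arrays (Hapln1, Vip, Rasl10a, Gabrd, Scn4b, Arc, P2ry12, Fgf1, Prox1 and Lct), and 3 had such a P7 mean (Gpc2, Mab21l1 and Neurog2). They were tested only because of the age at which they were brighter, no value shows their dim age to be above background, and their differences are given as a description. How many of the other genes in the counts above and in the lists below were dim at either age was not determined. The named genes that passed have 347 other probe sets, of which 309 shared the sign of the one used. Only 4 went against it with an unadjusted p under 0.05. For 6066 genes the 95% confidence interval of the difference lay within 0.5 of 0 on the log2 scale. In whole tissue, a change in the number of cells of a type and a change in the RNA of each cell cannot be told apart, and this holds for every result that follows.

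Markers of tissue that borders the cortex were checked before the results. Transthyretin (Ttr), the most abundant transcript of the choroid plexus, read 12.11, 13.87, 8.72 and 6.16 at P0 and 13.93, 13.92, 13.72 and 14.05 at P7. The P0 arrays thus spread over most of the range of values, while the P7 arrays were all high, and the ages overlapped. Its difference of 3.69 (SE 1.26, adjusted p = 0.0269, limma) lost its call without P0 replicate 3 (3.19, adjusted p = 0.0788), P0 replicate 4 (2.34, adjusted p = 0.0967), P7 replicate 2 (3.68, adjusted p = 0.0501) or P7 replicate 4 (3.64, adjusted p = 0.0514). Of 13 tested genes of choroid plexus and ependyma, 4 rose (30.8%, against 22.5% of all genes) and 9 did not pass. Those that rose were Ttr, Sostdc1 (0.86), Calml4 (1.12) and Tmem212 (0.96). The mean level of the 13 genes ran from 5.60 to 6.81 over the P0 arrays and from 6.58 to 6.86 over the P7 arrays. Foxj1, a regulator of motile cilia, read 5.73, 5.68, 5.84 and 5.86 at P0 and 5.67, 5.79, 5.61 and 5.73 at P7, which did not pass (adjusted p = 0.441). Of 14 tested striatal genes, 8 rose (57.1%), 2 fell (14.3%, against 18.5% of all genes) and 4 did not pass. Gpr6, a receptor of striatal projection neurons, rose by 2.02. The 2 that fell were Ebf1, a transcription factor of young striatal neurons, from 8.35 ± 0.04 to 6.67 ± 0.09 (SD, n = 4), and Isl1 (-2.27). Ppp1r1b, which encodes DARPP-32, rose by 0.70, and the dopamine receptor gene Drd2 read 5.49, 5.21, 5.47 and 5.61 at P0 and 5.35, 5.48, 4.79 and 5.26 at P7 and did not pass. The mean level of the striatal list ran from 7.69 to 7.84 at P0 and from 7.88 to 8.19 at P7. Of 8 tested genes of thalamus, hypothalamus and midbrain, 1 rose (12.5%), the nuclear receptor gene Rora (1.15), and 7 did not pass. Of 6 hippocampal genes, Wfs1 (1.35), Prox1 (0.84), Lct (0.84) and Dkk3 (0.55) rose, Zbtb20 fell and 1 did not pass. Zbtb20 fell by 0.41, a call lost without P0 replicate 1, 2 or 4 or P7 replicate 2 or 3 (-0.33 to -0.39, adjusted p = 0.0693 to 0.108). Of 2 tested erythroid genes, Alas2, the first enzyme of heme synthesis in red cells, rose by 0.70 and 1 did not pass. The part of bordering tissue in the results below was not tested.

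The 12 largest increases among genes whose ages did not overlap came from several cell types. Mbp, which encodes myelin basic protein, read 6.93, 6.04, 6.71 and 6.19 at P0 and 11.05, 11.13, 10.83 and 11.18 at P7. The lowest P7 array thus lay about 4 log2 units above the highest P0 array, and the fitted increase was 23.9-fold (log2 4.58, SE 0.26, adjusted p = 1.97e-09, limma). Its other 7 probe sets were all higher at P7 in sign, 5 of them at an unadjusted p under 0.05. Hapln1, the link protein that ties hyaluronan to proteoglycans in the matrix around neurons, read 5.97, 4.93, 5.02 and 4.40 at P0 and 9.26, 9.10, 8.91 and 9.26 at P7. Its P0 values lay near the lower end of the range. Gpr37l1, a receptor of astrocytes, rose 11.1-fold. Vip, the peptide gene of a class of inhibitory interneurons, read 4.46, 4.08, 4.67 and 4.57 at P0 and 7.63, 7.79, 7.91 and 7.44 at P7. Its P0 values lay in the low part of the range, where array signals are compressed. The other 8 were S100b (2.82), a calcium-binding protein of astrocytes, Abhd3 (2.78), the zinc transporter gene Slc39a12 (2.77), Rasl10a (2.70), Crym (2.68), which binds thyroid hormone, Itpka (2.64), an inositol trisphosphate kinase of dendritic spines, and Thy1 (2.63) and Icam5 (2.59), surface proteins of forebrain neurons.

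The 12 largest decreases were smaller. Igfbpl1, a gene of newborn neurons, read 9.51, 10.04, 9.01 and 9.13 at P0 and 6.73, 6.39, 6.30 and 7.11 at P7, a 6.9-fold decrease (SE 0.20, adjusted p = 1.71e-08, limma). Sox11, a transcription factor of differentiating neurons, read 12.90, 13.06, 13.23 and 13.03 at P0 and 11.13, 10.84, 10.79 and 10.60 at P7, a 4.64-fold decrease (SE 0.10). The arrays of each age lay within 0.6 of each other, and its other 5 probe sets were all lower at P7 at an unadjusted p under 0.05. Gpc2, a glypican of growing axons, fell by 2.77, Insm1, a zinc-finger factor of neurogenic progenitors, by 1.90, and the RNA-binding protein gene Igf2bp3 by 2.06. Lhx8 (-2.37) and Isl1 (-2.27) are homeodomain genes of the ventral forebrain, and Isl1 also belongs to the striatal list above. Mab21l1 (-1.89), Cd1d1 (-1.96), Ttc28 (-1.85) and B330016D10Rik (-2.28) completed the group together with H3f3b (-2.10), a histone H3.3 gene that was measured by a single probe set here.

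**Figure D1:**
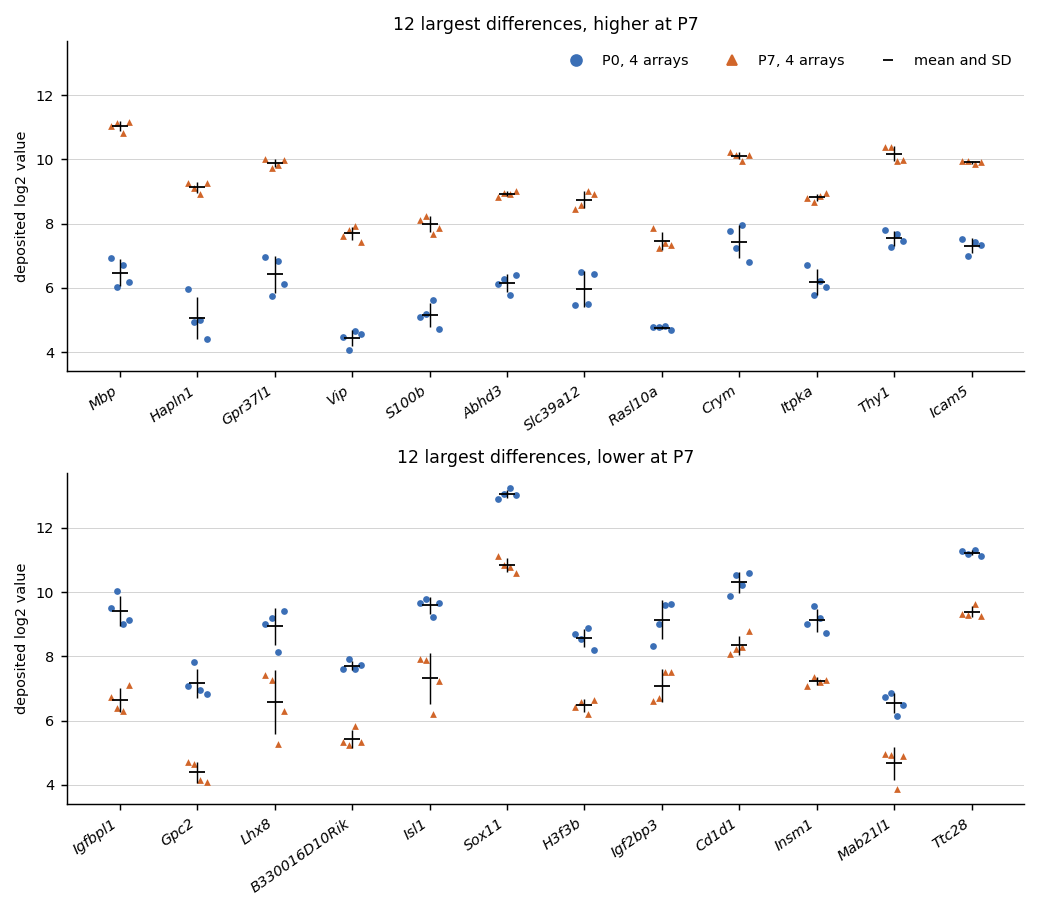
The deposited log2 value of every wild-type array (vertical axis) for the 12 genes with the largest increase (upper panel) and the largest decrease (lower panel) among those past the threshold whose ages do not overlap. Circles are the 4 P0 arrays, triangles the 4 P7 arrays, and the bars give the mean and SD. Mbp stands apart with means of 6.47 and 11.05, and the spread is wide at P7 for Lhx8 and Isl1 (SD 1.00 and 0.80).

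Genes of the dividing cell fell together. Of 37 tested genes that act from S to M phase, 29 fell (78.4%, against 18.5% of all genes), 2 rose and 6 did not pass, with a median difference of -0.56 against 0.02 over all genes. Cdc20, the activator of the anaphase-promoting complex, read 9.38, 9.39, 9.32 and 9.24 at P0 and 8.59, 8.41, 8.51 and 8.45 at P7, and all 4 P0 arrays were higher than all 4 P7 arrays. Top2a, the topoisomerase that untangles chromosomes, read 8.55, 8.96, 8.34 and 8.22 at P0 and 7.70, 7.77, 7.66 and 7.52 at P7, a 1.81-fold decrease (SE 0.14, adjusted p = 0.000178, limma). Its P7 arrays lay within 0.3 of each other, so the spread was mostly among the P0 arrays. Gins1 and Rrm2, which serve replication forks and nucleotide supply, fell by 1.09 and 1.06 and were the only members past 2-fold. Kif23, a motor of cytokinesis, fell by 0.93, Mki67 by 0.70, the mitotic kinase gene Cdk1 by 0.66 and its partner Ccnb2 by 0.50. The 2 genes that rose act at the entry into S phase: Ccne1, the cyclin E gene (8.99, 8.64, 8.82 and 8.63 at P0 and 9.60, 9.58, 9.37 and 9.44 at P7, difference 0.73), and E2f1 (difference 0.62). The list's median was -0.73 in replicates 1 and 2 and -0.34 in replicates 3 and 4.

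Because these genes moved together, the 200 bases before their RefSeq start (GRCm38.p6) were searched for sequences known from cell cycle promoters: the cell cycle homology region (CHR, TTTGAA) and the CCAAT box (CCAAT), on both strands. Promoters were found for 31 of the 37 genes, 32 in all. A CHR was present in 9 of the 32 (28.1%), against 12.5% of all 32851 promoters, and a CCAAT box in 25 (78.1%), against 29.3%. The CCAAT box was not particular to this list. It was also present in 11 of 18 promoters (61.1%) of the circadian clock list, most of whose genes rose, while a CHR was in 0 of those 18. These letters describe the windows and are not shown to be bound. The promoters of 4 mitotic genes that fell are shown here, picked because they hold both sequences, written 5′ to 3′ in the direction of the gene, all on the minus strand, with every CHR and CCAAT box of either strand in capitals. They lie at chr11:99024190-99024389 (Top2a), chr4:118437344-118437543 (Cdc20), chr9:70421555-70421754 (Ccnb2) and chr10:69352913-69353112 (Cdk1), directly before the first exon.
Top2a: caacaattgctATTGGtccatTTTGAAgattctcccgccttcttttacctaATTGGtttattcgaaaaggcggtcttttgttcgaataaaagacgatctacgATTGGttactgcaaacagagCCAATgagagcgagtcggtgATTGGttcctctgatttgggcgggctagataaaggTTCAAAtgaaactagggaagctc
Cdc20: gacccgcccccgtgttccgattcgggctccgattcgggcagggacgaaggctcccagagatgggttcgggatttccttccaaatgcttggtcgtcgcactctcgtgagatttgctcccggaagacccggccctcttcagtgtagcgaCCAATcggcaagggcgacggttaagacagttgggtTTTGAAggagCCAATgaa
Ccnb2: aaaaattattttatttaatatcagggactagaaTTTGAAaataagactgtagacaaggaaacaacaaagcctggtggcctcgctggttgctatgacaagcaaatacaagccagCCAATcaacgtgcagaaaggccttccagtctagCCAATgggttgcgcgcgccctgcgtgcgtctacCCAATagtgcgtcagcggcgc
Cdk1: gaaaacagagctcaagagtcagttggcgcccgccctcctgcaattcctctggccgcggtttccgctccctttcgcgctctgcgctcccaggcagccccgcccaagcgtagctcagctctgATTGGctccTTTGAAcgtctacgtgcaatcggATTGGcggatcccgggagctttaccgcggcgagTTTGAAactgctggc
In this window Top2a had 5 CCAAT boxes and 2 CHR, Cdc20 had 2 and 1, Ccnb2 had 3 and 1, and Cdk1 had 2 and 2. In Top2a, Cdc20 and Cdk1 a CHR lay close to the start of the gene, and in Ccnb2 the only one lay far upstream.

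Of 11 tested genes of intermediate progenitors, the cells that divide to give pairs of neurons, 6 fell (54.5%, against 18.5% of all genes), 1 rose and 4 did not pass (median -0.49). Eomes, their defining transcription factor, read 7.26, 8.81, 8.09 and 7.59 at P0 and 6.53, 6.48, 6.43 and 7.06 at P7 (difference -1.32, SE 0.38, adjusted p = 0.0108, limma). P0 replicate 2 was the highest and P7 replicate 4 stood above the other P7 arrays, yet the ages did not overlap. The proneural gene Neurog2 fell by 1.14 and Hes6 by 0.98, and the somatostatin receptor gene Sstr2 rose by 0.65. Of 17 tested radial glia genes, 7 fell (41.2%), 4 rose (23.5%, against 22.5% of all genes) and 6 did not pass (median -0.15). The genes that fell included the intermediate filament genes Nes (-0.80) and Vim (-0.82), the matrix gene Tnc (-1.01), and Sox2 (-0.43). Pax6 fell by 0.66 (adjusted p = 0.0145, limma), a call that was lost without P0 replicate 2 (-0.51, adjusted p = 0.0595) or P7 replicate 3 (-0.51, adjusted p = 0.0584). Of its 4 other probe sets, 3 had the same sign, and none had an unadjusted p under 0.05. Hopx, which marks outer radial glia and later astrocytes, moved the other way. It read 9.09, 8.72, 8.81 and 8.33 at P0 and 9.84, 9.78, 10.06 and 10.23 at P7, a 2.36-fold increase, and the endothelin receptor gene Ednrb, shared with astrocytes, rose by 0.69. Mfge8, a secreted protein gene, rose by 0.51. The Notch target gene Hes1 rose by 0.31, a call lost without P0 replicate 2, 3 or 4 or P7 replicate 1, 2 or 3 (0.28 to 0.31, adjusted p = 0.0825 to 0.111).

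Several genes of newborn neurons fell. Of 22 tested genes of immature neurons, 10 fell (45.5%, against 18.5% of all genes), 1 rose (4.55%) and 11 did not pass (median -0.18). Sox4, a close relative of Sox11, read 13.12, 13.33, 13.18 and 13.29 at P0 and 11.45, 11.59, 11.77 and 11.97 at P7. Its lowest P0 array exceeded its highest P7 array by more than 1 log2 unit, and it fell 2.89-fold (adjusted p = 9.71e-09, limma). Draxin, a secreted guidance protein of forebrain commissures, fell by 1.62. Doublecortin (Dcx), the microtubule protein of migrating neurons, read 12.89, 12.85, 12.71 and 12.71 at P0 and 11.90, 11.86, 11.97 and 11.78 at P7, a decrease of 0.91 with little spread at either age. Gap43, a growth cone protein, rose by 0.42, although P0 replicate 1 overlapped the P7 arrays. Of 41 tested axon guidance genes, 16 fell (39%, against 18.5% of all genes), 8 rose (19.5%, against 22.5%) and 17 did not pass. Their median of -0.06 was nearer 0 or above it without P0 replicate 1, 3 or 4 or P7 replicate 1 or 2 (-0.03 to 0.02). The Slit receptor genes Robo1 (-0.95) and Robo2 (-0.96), the ephrin receptor gene Epha3 (-0.97), the plexin gene Plxna2 (-0.94) and the early axonal adhesion gene Cntn2 (-1.45) fell. Sema3e rose by 1.12. The adhesion gene Cntn1 read 12.12, 12.05, 11.82 and 12.01 at P0 and 12.81, 12.85, 12.85 and 12.85 at P7, and Nrcam rose by 0.50.

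Of 22 tested cytoskeletal genes, 8 rose (36.4%, against 22.5% of all genes), 4 fell (18.2%, against 18.5%) and 10 did not pass. Their median of 0.15 was 0.10 without P7 replicate 1 and 0.09 without P7 replicate 2. Tuba4a, an alpha tubulin of mature neurons, read 10.96, 10.58, 11.37 and 11.17 at P0 and 13.29, 13.20, 13.36 and 13.29 at P7, a 4.8-fold increase (adjusted p = 8.97e-09, limma). Of the neurofilament genes, Nefh, the heavy chain, rose by 1.85 (SE 0.15), Nefm by 1.31 (SE 0.14) and Nefl by 0.98 (SE 0.10). Alpha-internexin (Ina), the filament protein of young neurons, read 11.07, 11.16, 11.20 and 11.12 at P0 and 10.63, 10.57, 10.70 and 10.70 at P7 and fell by 0.49. The other 3 that fell were Dcx, described above, Tubb3 and Tubb2b, tubulin genes of young neurons. Tubb3 fell by 0.36, a call lost without P0 replicate 1 or P7 replicate 2 or 4 (-0.25 to -0.33, adjusted p = 0.0739 to 0.103). Tubb2b fell by 0.26, a call lost without P0 replicate 2 (-0.22, adjusted p = 0.0525).

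Many chromatin genes fell. Over all genes, 18.5% fell and 22.5% rose. Of 18 tested subunits of the BAF chromatin remodeller, 10 fell (55.6%), 1 rose (5.56%) and 7 did not pass (median -0.51). The progenitor subunit gene Actl6a fell by 0.72, the DNA-binding subunit gene Arid1a by 0.72 and the ATPase gene Smarca4 by 0.54. Phf10 rose by 1.08 on its brightest probe set, while its other probe set gave -0.31 at an unadjusted p under 0.05 (limma). Of 19 Polycomb subunits, a list added after values were seen, 11 fell (57.9%), 1 rose (5.26%), Cbx6 (1.08), and 7 did not pass. Ezh2, the methyltransferase that writes the repressive mark on histone H3, read 10.34, 10.61, 10.47 and 10.61 at P0 and 8.50, 8.49, 8.67 and 9.002 at P7, a 3.58-fold decrease (SE 0.14, adjusted p = 3.79e-08, limma). Its P7 arrays were all more than 1 log2 unit below its P0 arrays. Of 11 genes of DNA methylation, 5 fell (45.5%), 1 rose (9.09%) and 5 did not pass. Their median was -0.28, and -0.18 to -0.11 without P0 replicate 1 or 2 or P7 replicate 4. Dnmt1, which copies methylation after replication, fell by 0.77, and its partner Uhrf1 by 0.66. Tet2, which oxidises the mark, fell by 0.56, Dnmt3b by 0.47 and Mbd1, which binds it, by 0.46. Dnmt3a, which adds new methylation in young neurons, read 10.48, 10.85, 11.04 and 11.23 at P0 and 11.34, 11.56, 11.84 and 11.92 at P7 and rose by 0.77. Of its 4 other probe sets, 3 had the same sign and 1 the opposite sign, each at an unadjusted p under 0.05 (limma). The genes named Zfp with a number were a list also added after values were seen. Of 255 tested, 95 fell (37.3%), 14 rose (5.49%) and 146 did not pass (median -0.21).

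Genes of RNA-binding and ribosomal proteins fell more often than they rose. Over all genes, 18.5% fell and 22.5% rose. Of 23 tested neuronal RNA-binding protein genes, 10 fell (43.5%), 3 rose (13%) and 10 did not pass (median -0.30). The splicing regulator genes Nova2 (-0.63), Srrm4 (-0.59) and Ptbp2 (-0.59) fell. Mbnl2, a splicing regulator of mature brain, read 8.19, 8.05, 7.69 and 7.53 at P0 and 9.44, 9.41, 9.12 and 9.37 at P7, a 2.77-fold increase, and Rbfox3, the gene of the neuronal antigen NeuN, rose by 0.52. Elavl4 rose by 0.33, a call lost without P0 replicate 1, 2 or 3 or P7 replicate 2, 3 or 4 (0.24 to 0.36, adjusted p = 0.0584 to 0.153). Of 40 tested genes of ribosomal proteins, 26 fell (65%), 0 rose and 14 did not pass (median -0.31), and 0 passed 2-fold. Rplp0 fell by 0.68. Rps25 read 9.59, 9.43, 9.25 and 9.85 at P0 and 7.19, 8.35, 8.73 and 8.75 at P7, which did not pass (adjusted p = 0.0679) except with the replicate number as a block (adjusted p = 0.00713), with P7 replicate 1 far below the other P7 arrays. Ribosomal protein genes have many near-identical pseudogene copies, so their probe sets may collect signal from several genes. Of 3 tested genes of the Lin28 and let-7 pathway, 2 fell (66.7%) and 1 did not pass. Those that fell were Igf2bp3, given above, and Mycn (-0.71), a driver of growth and ribosome production. Of the 2 other probe sets of Mycn, 1 had the same sign, and neither had an unadjusted p under 0.05 (limma). Of 4 tested histone genes, 2 fell (50%) and 2 did not pass (median -0.41).

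**Figure D2:**
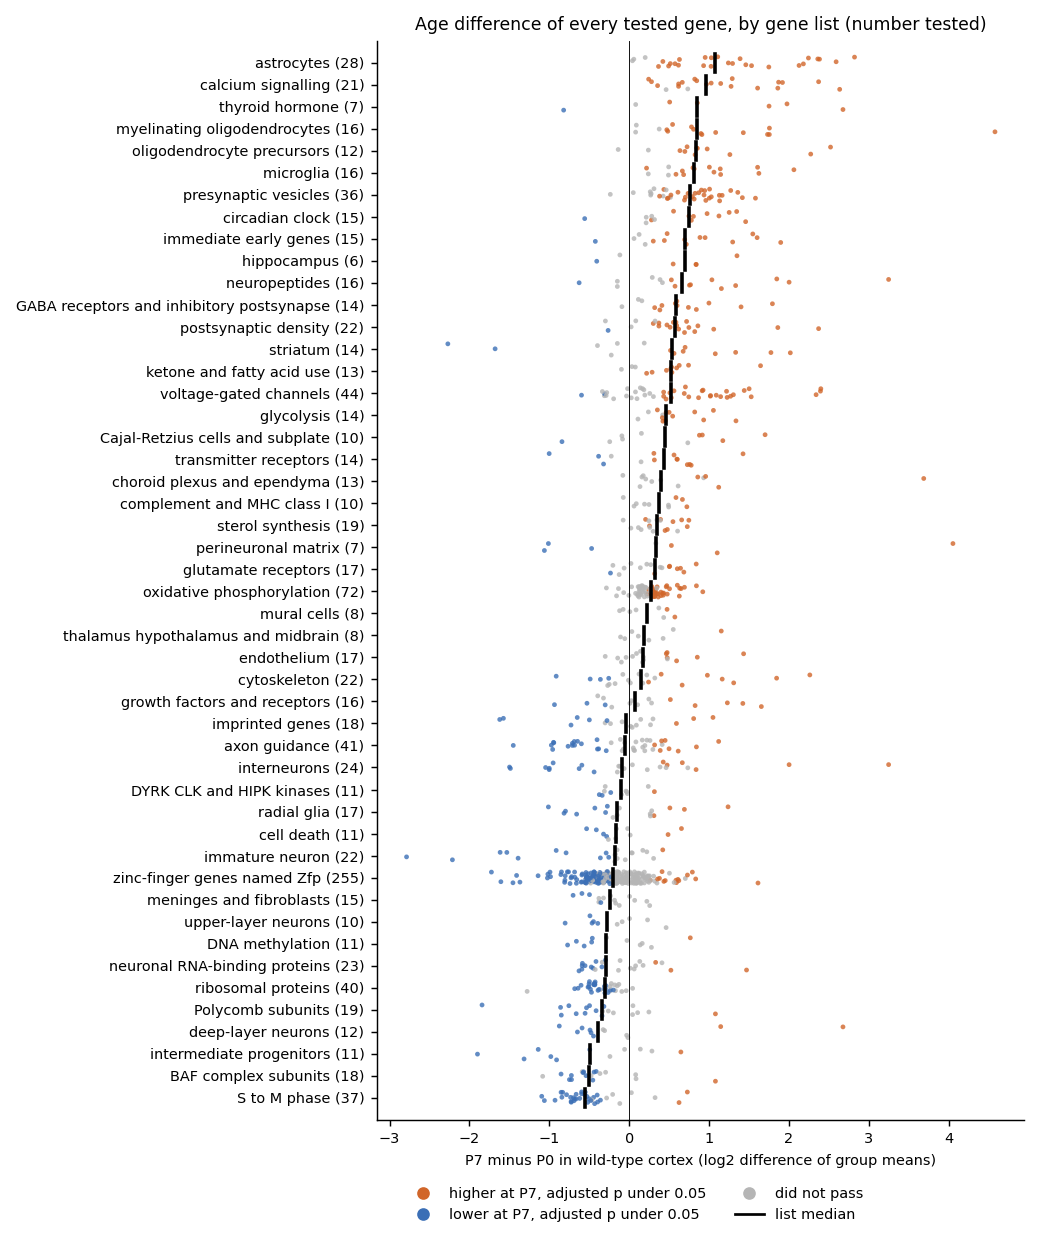
Each point is a tested gene, placed by its P7 minus P0 difference in wild-type cortex (horizontal axis, log2) in the row of its list, with the number of tested genes in brackets. Orange points rose, blue points fell, grey points did not pass, and black bars are list medians, which run from -0.56 (S to M phase) to 1.07 (astrocytes). Lists with fewer than 5 tested genes are not drawn.

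Most presynaptic genes rose. Of 36 tested genes of synaptic vesicles and their release, 27 rose (75%, against 22.5% of all genes), 0 fell and 9 did not pass, with a median difference of 0.76. Synaptophysin (Syp), a vesicle membrane protein, read 10.05, 10.04, 9.99 and 10.01 at P0 and 11.26, 11.48, 11.01 and 11.0003 at P7. The P0 arrays were within 0.1 of each other and all P7 arrays were higher by about 1 log2 unit or more (difference 1.16, SE 0.15, adjusted p = 8.58e-06, limma). Syp has a second, dim probe set, which gave -0.01 (unadjusted p = 0.908). The largest increases were those of the vesicle glycoprotein gene Sv2b (1.58), the vesicular glutamate transporter gene Slc17a7 (1.42), the synapsin gene Syn2 (1.36) and Synpr (1.27). Syt1, the calcium sensor of release, rose by 1.13, and Snap25, part of the fusion machinery, read 11.53, 11.76, 11.71 and 11.76 at P0 and 12.55, 12.69, 12.76 and 12.77 at P7. Slc17a7 was less even than the others: it read 5.37, 5.02, 5.36 and 5.44 at P0 and 7.23, 7.16, 6.52 and 5.95 at P7, so that P7 replicate 4 lay near the P0 arrays.

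On the postsynaptic side, 17 of 22 tested genes of the postsynaptic density rose (77.3%, against 22.5% of all genes). Of the others, 1 fell (4.55%, against 18.5%), Homer3 (-0.26), and 4 did not pass (list median 0.57). Camk2a, the kinase subunit that fills the density of excitatory synapses, read 7.78, 7.56, 8.28 and 8.34 at P0 and 10.32, 10.48, 10.36 and 10.29 at P7, a 5.18-fold increase (SE 0.15, adjusted p = 6.16e-09, limma), and its other 5 probe sets were all higher at P7, 4 of them at an unadjusted p under 0.05. Neurogranin (Nrgn), a calmodulin-binding protein of dendrites, rose by 1.86, the scaffold gene Shank3 by 1.06 and Dlg4, the gene of PSD-95, by 0.51. Of 17 tested receptors for glutamate, 7 rose (41.2%), 1 fell (5.88%) and 9 did not pass (median 0.32), and 0 passed 2-fold. The largest increases were of the metabotropic receptor genes Grm7 (0.84) and Grm4 (0.69) and the AMPA receptor gene Gria3 (0.64). The kainate receptor gene Grik3 fell by 0.23, a call lost without P0 replicate 2, 3 or 4 or P7 replicate 1, 2 or 3 (-0.21 to -0.25, adjusted p = 0.0531 to 0.0992). Grin2b, the NMDA receptor subunit of young synapses, read 10.78, 10.98, 11.48 and 11.54 at P0 and 11.07, 11.41, 11.80 and 12.16 at P7, a difference of 0.41 that did not pass (95% interval -0.17 to 0.99). Grin2b was higher at P7 in each of the 4 same-numbered pairs, and it passed with the replicate number as a block (0.41, adjusted p = 0.0146). Grin2a, its later partner, was under the filter on mean level, and Grin1 was not analysed here.

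At inhibitory synapses, 11 of 14 tested genes rose (78.6%, against 22.5% of all genes), 0 fell and 3 did not pass (median 0.59). Gabrd, the delta subunit of GABA-A receptors outside the synapse, read 4.90, 4.28, 4.65 and 4.56 at P0 and 6.55, 6.46, 6.33 and 6.23 at P7. Its P0 values were again in the low part of the range. Gabra4 rose by 1.40, Gabrb1 by 0.84 and Gabra2 by 0.74. Slc12a5, which encodes the chloride exporter KCC2, read 10.78, 10.90, 10.72 and 11.05 at P0 and 11.77, 11.80, 11.91 and 11.96 at P7, a difference of 1.00 (SE 0.09, adjusted p = 1.62e-07, limma), and the 2 ages did not overlap. Slc12a2, which encodes the chloride importer NKCC1, read 10.09, 10.53, 10.44 and 10.64 at P0 and 10.09, 10.31, 10.50 and 10.43 at P7. That difference of -0.09 did not pass, and its 95% interval ran from -0.34 to 0.16.

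Most channel genes rose. Of 44 tested voltage-gated and related channel genes, 26 rose (59.1%, against 22.5% of all genes), 2 fell (4.55%) and 16 did not pass. Their median was 0.52, and 14 rose at least 2-fold. The sodium channel beta subunit gene Scn2b read 7.28, 7.16, 7.34 and 7.11 at P0 and 9.52, 9.66, 9.64 and 9.67 at P7, and the fit gave a 5.28-fold increase (SE 0.12, adjusted p = 6.98e-10, limma). The 2 other probe sets of Scn2b had the same sign, but neither had an unadjusted p under 0.05 (limma). Scn4b, a relative of Scn2b, rose by 2.34. The potassium channel genes of axons, Kcna1 and Kcna2, and their partner Kcnab1 rose by 1.44, 1.502 and 1.53. Kcna2 read 7.62, 7.58, 7.52 and 7.70 at P0 and 9.04, 9.17, 9.10 and 9.10 at P7, with every array within 0.2 of the others of its age. The other 3 probe sets of Kcna2 gave 1.44, -0.08 and -0.02. Kcnj9, a G protein-gated potassium channel gene, rose by 2.40 with a wide SE of 0.66, and P0 replicate 3 lay lowest. The T-type calcium channel gene Cacna1h fell by 0.60 on its brightest probe set, and its other probe set gave 0.09. The other channel gene that fell was Kcnd3, of an A-type potassium channel. It fell by 0.31, a call lost without P0 replicate 1 or 2 or P7 replicate 3 or 4 (-0.23 to -0.29, adjusted p = 0.0619 to 0.104). Of 21 tested genes of calcium signalling, 19 rose (90.5%), 0 fell and 2 did not pass (median 0.97). Hippocalcin (Hpca), a neuronal calcium sensor, read 8.19, 7.53, 7.84 and 7.45 at P0 and 9.93, 9.73, 9.72 and 9.30 at P7, a 3.78-fold increase. Its relative Hpcal4 rose by 1.87 and the kinase gene Camk4 by 1.61.

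Among receptors for other transmitters, 9 of 14 tested rose (64.3%, against 22.5% of all genes), 3 fell (21.4%, against 18.5%) and 2 did not pass (median 0.44). Htr2c, a serotonin receptor gene, read 7.40, 7.35, 7.15 and 7.15 at P0 and 8.74, 8.89, 8.27 and 8.85 at P7, a 2.69-fold increase. Htr3a, the ionotropic serotonin receptor of a class of interneurons, read 7.30, 7.66, 7.07 and 7.20 at P0 and 6.16, 6.17, 6.31 and 6.58 at P7, a decrease of 1.00 with no overlap. The muscarinic receptor gene Chrm1 rose by 0.78. The nicotinic receptor gene Chrnb2 fell by 0.32, a call lost without P0 replicate 1, 2 or 4 or P7 replicate 1, 3 or 4 (-0.23 to -0.36, adjusted p = 0.051 to 0.16). The cannabinoid receptor gene Cnr1 fell by 0.38, a call lost without P0 replicate 2 or P7 replicate 1 (-0.28 to -0.31, adjusted p = 0.0731 to 0.0766). Immediate early genes respond to neuronal activity and also to handling of tissue. Of 15 tested, 11 rose (73.3%), 1 fell (6.67%) and 3 did not pass (median 0.70). Egr3 read 8.11, 7.84, 8.05 and 8.28 at P0 and 9.70, 9.77, 10.04 and 10.37 at P7, a 3.73-fold increase (SE 0.16, adjusted p = 1.55e-07, limma). Egr1 rose by 1.60, Fos by 1.55, Egr2 by 1.30 and Arc by 0.89. All Egr3 values at P7 were above all values at P0, and P7 replicate 4 was the highest for Egr1, Egr2, Egr3, Fos and Arc. Dusp1, a phosphatase gene of the same response, fell by 0.42. The neurotrophin gene Bdnf read 5.83, 5.85, 6.29 and 6.23 at P0 and 7.33, 7.59, 7.54 and 7.44 at P7, a 2.68-fold increase (SE 0.11, adjusted p = 7.16e-08, limma).

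Layer genes mostly fell or did not pass. Of 10 tested upper-layer genes, 0 rose, 5 fell (50%, against 18.5% of all genes) and 5 did not pass (median -0.27). Of 12 deep-layer genes, 2 rose (16.7%, against 22.5%), 6 fell (50%) and 4 did not pass (median -0.39). The deep-layer factor gene Tbr1 read 8.59, 8.88, 8.65 and 8.58 at P0 and 7.95, 7.97, 8.22 and 8.21 at P7 and fell by 0.59. Foxp2 fell by 0.87, Bcl11b by 0.49 and, among upper-layer genes, Pou3f3 by 0.80, Inhba by 0.49, Lhx2 by 0.45 and Cux1 by 0.39. Pou3f2 fell by 0.46, a call lost without P0 replicate 1 (-0.37, adjusted p = 0.0522). The 2 deep-layer genes that rose were Crym, given above, and Pcp4. Pcp4, a calmodulin regulator of deep-layer neurons, read 10.38, 10.34, 10.51 and 10.82 at P0 and 11.58, 11.66, 11.67 and 11.72 at P7 and rose by 1.15. Rorb, a gene of layer 4, read 8.16, 7.74, 8.43 and 7.47 at P0 and 8.74, 8.27, 8.36 and 8.28 at P7, which did not pass (adjusted p = 0.0785). Of 10 tested genes of Cajal-Retzius cells and the subplate, 4 rose (40%, against 22.5% of all genes), 1 fell (10%, against 18.5%) and 5 did not pass. The subplate genes Cplx3 and Ccn2 rose by 1.70 and 1.17, and Moxd1 and Tmem163 by 0.92 and 0.88. Of the Cajal-Retzius genes, Reln read 11.61, 11.65, 11.86 and 11.69 at P0 and 11.58, 11.56, 11.67 and 11.68 at P7 and did not pass, while Ebf3 fell by 0.84.

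Of 24 tested interneuron genes, 6 rose (25%, against 22.5% of all genes), 9 fell (37.5%, against 18.5%) and 9 did not pass. Their median of -0.09 was nearer 0 without P0 replicate 1 or P7 replicate 2 or 4 (-0.06 to -0.03). The Dlx genes of migrating interneurons fell, with Dlx2 at 8.84, 9.10, 8.93 and 8.87 at P0 and 7.54, 7.48, 7.28 and 7.45 at P7 (difference -1.498, SE 0.14, adjusted p = 4.91e-07, limma) and Dlx1 at a difference of -1.49. The striatal genes Isl1 and Ebf1 fell beside them, and the level of the striatal list as a whole was higher at P7, as given above. Lhx6, a factor of interneurons from the medial ganglionic eminence, fell by 0.95. Gad1, which makes GABA, read 11.35, 11.64, 11.28 and 11.58 at P0 and 11.50, 11.58, 11.24 and 11.69 at P7, and its difference of 0.04 had a 95% interval from -0.25 to 0.33. Of 16 tested neuropeptide genes, 10 rose (62.5%), 1 fell (6.25%) and 5 did not pass (median 0.66). After Vip, the largest increases were of Crh, the corticotropin-releasing hormone gene (6.94, 6.58, 6.999 and 7.47 at P0 and 8.81, 8.84, 9.30 and 9.06 at P7, a 4.01-fold increase), and Cck, the cholecystokinin gene (9.42, 9.03, 9.28 and 8.65 at P0 and 11.05, 10.88, 10.83 and 11.02 at P7, a 3.6-fold increase). Penk rose by 1.33. Npy fell by 0.63, and Sst, at a difference of 0.39, did not pass (adjusted p = 0.0685) except with the replicate number as a block (adjusted p = 0.00894). The parvalbumin gene Pvalb rose by 0.67, from values near the lower end of the range, with P7 replicate 3 inside the P0 range.

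**Figure D3:**
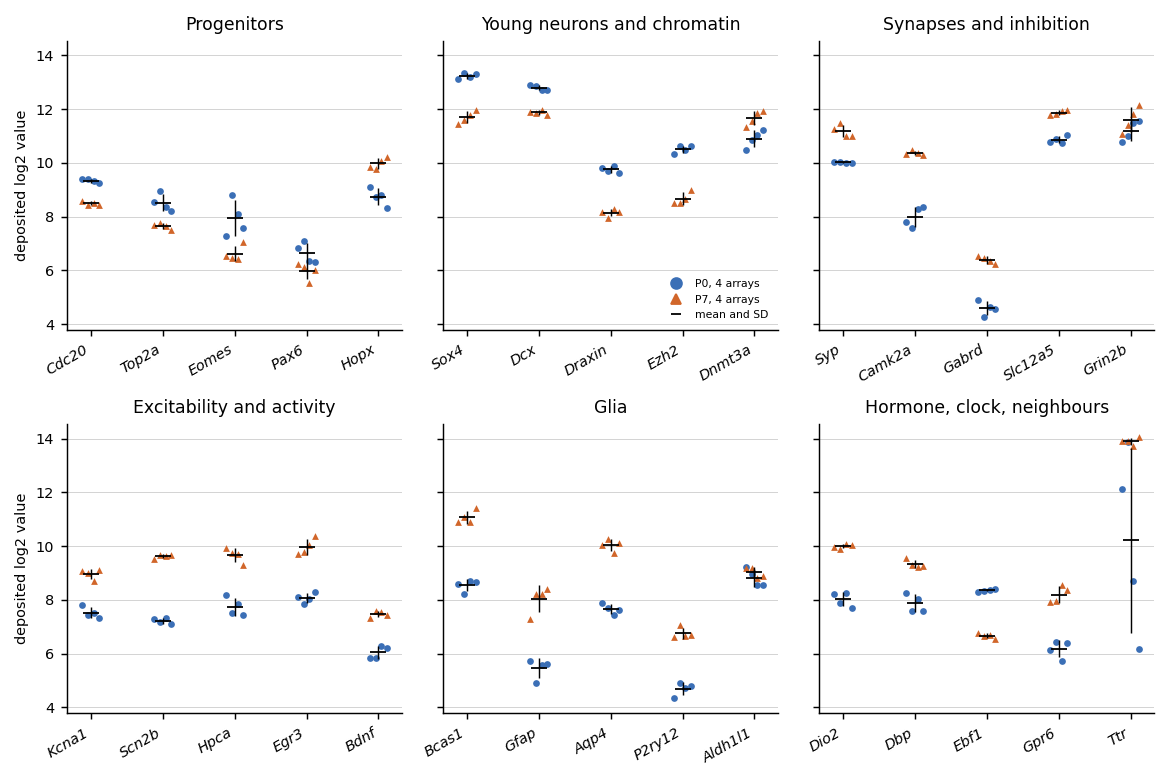
The deposited log2 value of every wild-type array (vertical axis) for 5 genes in each of 6 groups. Circles are the 4 P0 arrays, triangles the 4 P7 arrays, and bars give the mean and SD. The ages are clear of each other for genes such as Ezh2, Camk2a, Aqp4 and Dio2, overlap for Grin2b and Aldh1l1, and spread from 6.16 to 13.87 over the P0 arrays for Ttr.

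Most astrocyte genes rose. Of 28 tested astrocyte genes, 25 rose (89.3%, against 22.5% of all genes), 0 fell and 3 did not pass (median 1.07). Aqp4, the water channel of astrocyte endfeet, read 7.87, 7.71, 7.43 and 7.64 at P0 and 10.03, 10.26, 9.76 and 10.13 at P7, a 5.22-fold increase (SE 0.12, adjusted p = 9.1e-10, limma). Slc1a2, which encodes the main glutamate transporter of the forebrain, read 9.52, 8.87, 8.97 and 9.07 at P0 and 11.19, 11.43, 11.58 and 11.68 at P7, and Gfap, the astrocyte filament protein, read 5.71, 4.90, 5.59 and 5.61 at P0 and 7.30, 8.24, 8.23 and 8.41 at P7. The ages were apart for all 3 genes, and the lowest P7 array for Gfap was replicate 1. Gpc5 rose by 2.18, Slc7a10, a serine transporter gene, by 2.13 and the mitochondrial glutamate carrier gene Slc25a18 by 2.24. Aldh1l1, which marks astrocytes from early stages, read 9.22, 8.97, 8.54 and 8.57 at P0 and 9.19, 9.19, 8.81 and 8.91 at P7 and did not pass (difference 0.20, adjusted p = 0.377).

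Of 12 tested oligodendrocyte precursor genes, 10 rose (83.3%, against 22.5% of all genes), 0 fell and 2 did not pass (median 0.84). Pdgfra, the growth factor receptor of precursors, read 9.99, 10.21, 10.19 and 10.09 at P0 and 10.80, 10.87, 10.75 and 10.84 at P7 and rose by 0.70. Of genes of the committed stage, Bcas1, which marks early myelinating cells, read 8.61, 8.22, 8.71 and 8.65 at P0 and 10.90, 11.07, 10.90 and 11.41 at P7, a 5.74-fold increase, and the receptor gene Gpr17 read 7.40, 6.92, 7.11 and 7.11 at P0 and 9.39, 9.43, 9.16 and 9.65 at P7. The arrays of each age lay within 0.6 of each other for both. Nkx2-2 rose by 1.26. Of 16 tested genes of myelinating cells, 13 rose (81.2%), 0 fell and 3 did not pass (median 0.85). Besides Mbp, the largest increases were of Cryab (1.76), the myelin lipid enzyme gene Ugt8a (1.76) and Cnp (1.73). Mag, the myelin-associated glycoprotein gene, read 5.61, 5.47, 5.77 and 5.57 at P0 and 6.73, 6.38, 6.47 and 6.45 at P7, a difference of 0.90.

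Microglial genes rose as well. Of 16 tested, 13 rose (81.2%, against 22.5% of all genes), 0 fell and 3 did not pass (median 0.81). P2ry12, a purine receptor of resident microglia, read 4.34, 4.92, 4.73 and 4.79 at P0 and 6.64, 7.06, 6.65 and 6.69 at P7, with the P0 arrays in the low part of the range. P2ry13 rose by 1.62, Ly86 by 1.61 and the fractalkine receptor gene Cx3cr1 by 1.00. C1qa, a complement gene of microglia, read 7.08, 6.50, 5.48 and 6.02 at P0 and 7.30, 7.18, 6.34 and 6.22 at P7, where replicates 1 and 2 were higher than replicates 3 and 4 at both ages, and it did not pass (adjusted p = 0.274) except with the replicate number as a block (0.49, adjusted p = 0.0152). Of 10 tested genes of complement and MHC class I, 3 rose (30%, against 22.5% of all genes) and 7 did not pass. Cd47, a signal against engulfment, rose by 0.72 and the MHC class I light chain gene B2m by 0.67. C1qc rose by 0.59, a call lost without P0 replicate 2, 3 or 4 or P7 replicate 1 or 2 (0.46 to 0.62, adjusted p = 0.0571 to 0.132).

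Of 7 tested perineuronal matrix genes, 3 rose (42.9%, against 22.5% of all genes), 3 fell (42.9%, against 18.5%) and 1 did not pass. Their median of 0.33 was 0.52 without P7 replicate 2 and 0.10 without P7 replicate 4. Versican (Vcan), a proteoglycan of the immature matrix, read 11.24, 11.38, 11.37 and 11.28 at P0 and 10.27, 10.23, 10.24 and 10.29 at P7, a 2.09-fold decrease (SE 0.07, adjusted p = 1.06e-08, limma). Of its 7 other probe sets, 4 had the same sign. Brevican (Bcan), a proteoglycan of the mature matrix, read 11.15, 10.63, 10.97 and 10.90 at P0 and 12.15, 12.07, 11.84 and 11.9995 at P7, a 2.15-fold increase. The ages were apart for both, and Hapln1, described above, was the largest increase of the list. Tnr rose by 0.53, and Tnc, given above, and the hyaluronan synthase gene Has3 (-0.47) fell.

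Of 17 tested endothelial genes, 6 rose (35.3%, against 22.5% of all genes), 0 fell and 11 did not pass (median 0.18). The tight junction gene Cldn5 read 10.70, 10.45, 10.31 and 10.26 at P0 and 10.36, 10.39, 10.24 and 10.15 at P7, which did not pass (adjusted p = 0.463). Of blood-brain barrier transporters, the organic anion carrier gene Slco1a4 read 6.34, 6.36, 6.34 and 6.60 at P0 and 7.80, 7.97, 7.76 and 7.84 at P7, a 2.7-fold increase, and the thyroxine carrier gene Slco1c1 rose by 0.85. Of 8 mural cell genes, 2 rose (25%, against 22.5% of all genes) and 6 did not pass, and the pericyte gene Rgs5 rose by 0.57. Tagln, of smooth muscle, rose by 0.47, a call lost without P0 replicate 2 or 3 or P7 replicate 2 or 4 (0.39 to 0.48, adjusted p = 0.0586 to 0.108). Of 15 tested genes of meninges and fibroblasts, 0 rose, 4 fell (26.7%, against 18.5% of all genes) and 11 did not pass. Their median of -0.23 was -0.14 without P0 replicate 1 or without P7 replicate 4. Slc6a13, a transporter gene of meningeal cells, fell by 0.70, a call lost without P7 replicate 3 (-0.58, adjusted p = 0.0515). Aldh1a2, which makes retinoic acid, fell by 0.59, a call lost without P0 replicate 1 or 3 or P7 replicate 3 or 4 (-0.49 to -0.59, adjusted p = 0.0554 to 0.0945). The collagen gene Col3a1 fell by 0.50, a call lost without P0 replicate 1 or 2 or P7 replicate 1 or 3 (-0.36 to -0.50, adjusted p = 0.0694 to 0.133). Foxc1 fell by 0.35, a call lost without P0 replicate 1, 2 or 3 or P7 replicate 1, 2, 3 or 4 (-0.28 to -0.38, adjusted p = 0.0504 to 0.112). Col1a1 read 7.38, 6.89, 7.20 and 6.72 at P0 and 7.32, 7.77, 6.66 and 6.73 at P7 and did not pass.

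Genes of energy metabolism rose by moderate amounts. Of 14 tested glycolytic genes, 11 rose (78.6%, against 22.5% of all genes), 0 fell and 3 did not pass (median 0.46). Eno2, the neuronal enolase gene, read 10.43, 10.70, 10.64 and 10.75 at P0 and 11.94, 11.89, 11.95 and 12.10 at P7, a 2.53-fold increase (SE 0.09, adjusted p = 9.74e-09, limma), and Aldoa rose by 1.06. Of 72 tested genes of oxidative phosphorylation, 37 rose (51.4%), 0 fell and 35 did not pass (median 0.27), with 0 past 2-fold. Of 13 tested genes of ketone and fatty acid use, 10 rose (76.9%), 0 fell and 3 did not pass (median 0.52). Slc16a1, which encodes the monocarboxylate transporter MCT1 for ketone bodies and lactate, read 9.23, 9.34, 8.32 and 8.63 at P0 and 10.46, 10.55, 10.46 and 10.63 at P7, a 3.13-fold increase. Oxct1, the enzyme that activates ketone bodies in brain mitochondria, read 11.83, 11.76, 11.87 and 11.84 at P0 and 12.53, 12.56, 12.57 and 12.61 at P7, with every array within 0.15 of the others of its age, and rose by 0.74. Of 19 tested genes of sterol synthesis, 9 rose (47.4%), 0 fell and 10 did not pass (median 0.35). The late enzyme genes Tm7sf2 and Dhcr7 rose by 0.75 and 0.73.

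Genes around thyroid hormone rose. Of 7 tested, 5 rose (71.4%, against 22.5% of all genes), 1 fell (14.3%, against 18.5%) and 1 did not pass (median 0.85). Dio2, the deiodinase that makes active hormone inside the brain, read 8.20, 7.90, 8.26 and 7.71 at P0 and 9.99, 9.89, 10.08 and 10.03 at P7, a 3.94-fold increase (SE 0.15, adjusted p = 3.2e-08, limma). Klf9, a transcription factor gene known to respond to the hormone, read 11.82, 10.96, 11.29 and 10.93 at P0 and 13.07, 13.12, 12.95 and 12.86 at P7. P0 replicate 1 was the highest of its age for Klf9, and the ages did not overlap. Crym, named among the largest increases, belongs to the same list. Hr, a corepressor gene that responds to the hormone, rose by 0.51, a call lost without P0 replicate 4 or P7 replicate 1 (0.40 to 0.41, adjusted p = 0.0558 to 0.0591). Rxrg, a retinoid receptor gene, fell by 0.82. Among 16 tested growth factors and receptors, 5 rose (31.2%, against 22.5% of all genes), 3 fell (18.8%, against 18.5%) and 8 did not pass. Igf1 read 8.34, 8.08, 7.88 and 7.72 at P0 and 9.37, 9.44, 9.13 and 8.99 at P7 and rose by 1.23, and the gene of its receptor, Igf1r, read 9.72, 9.73, 10.10 and 10.09 at P0 and 8.84, 8.92, 9.12 and 9.01 at P7 and fell by 0.94. Fgf1 rose by 1.66, Igfbp5 by 0.83 and Fgf13 by 0.52, as did Bdnf. The neurotrophin receptor genes Ngfr and Ntrk3 fell by 0.53 and 0.30. Among 18 tested imprinted genes, 3 rose (16.7%, against 22.5% of all genes), 6 fell (33.3%, against 18.5%) and 9 did not pass. The cell cycle inhibitor gene Cdkn1c fell by 1.57, Asb4 by 1.62, and the noncoding RNA gene Rian rose by 1.05, Slc38a4 by 0.81 and Snrpn by 0.59. Of 11 tested cell death genes, 2 rose (18.2%, against 22.5% of all genes), 4 fell (36.4%, against 18.5%) and 5 did not pass. Pmaip1, a gene that promotes apoptosis, fell by 0.53, Bcl2 by 0.41 and the apoptosome gene Apaf1 by 0.32. Bid fell by 0.28, a call lost without P7 replicate 1 (-0.23, adjusted p = 0.0552). Hrk, which promotes apoptosis, rose by 0.49. Bcl2l2, which protects from it, rose by 0.65 on its brightest probe set, while the mean over its probe sets gave 0.04.

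Most genes of the circadian clock list rose. Of 15 tested, 10 rose (66.7%, against 22.5% of all genes), 1 fell (6.67%, against 18.5%) and 4 did not pass (median 0.75). The labels give no time of day for the dissection, and its part was not tested. Dbp, a transcription factor that binds D-boxes and cycles strongly, read 8.26, 7.60, 8.05 and 7.60 at P0 and 9.57, 9.30, 9.24 and 9.25 at P7, a 2.75-fold increase (SE 0.14, adjusted p = 7.08e-07, limma). Its relative Hlf rose by 1.35 and the nuclear receptor gene Nr1d2 by 1.25. Cry1, a repressor of the clock, fell by 0.56, a call lost without P0 replicate 1 or 2 or P7 replicate 3 or 4 (-0.45 to -0.50, adjusted p = 0.0537 to 0.0594). Per3, a period gene, read 6.44, 6.38, 6.46 and 6.55 at P0 and 7.51, 7.76, 7.50 and 7.55 at P7, and Ciart, a repressor of the clock, read 5.81, 5.51, 5.89 and 5.75 at P0 and 6.31, 6.25, 6.34 and 6.29 at P7. The ages did not overlap for either gene. Upstream windows were searched for the E-box CACGTG, which is the same on both strands, and the D-box TTATGTAA on both strands. Of 18 promoters from 13 of the 15 genes, 5 held the E-box (27.8%, against 5.26% of all promoters) and 1 held the D-box (5.56%, against 0.679%). The window of Per3 (chr4:151044666-151044865, minus strand, 1 D-box) and that of Ciart (chr3:95882229-95882428, minus strand, 3 E-boxes) are shown because they held these motifs, which are in capitals. Their CCAAT boxes, 2 in Per3 and 3 in Ciart, are left in lower case.
Per3: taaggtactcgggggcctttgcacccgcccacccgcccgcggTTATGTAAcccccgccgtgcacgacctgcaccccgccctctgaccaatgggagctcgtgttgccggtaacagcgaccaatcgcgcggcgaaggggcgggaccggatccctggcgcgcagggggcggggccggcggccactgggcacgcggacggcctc
Ciart: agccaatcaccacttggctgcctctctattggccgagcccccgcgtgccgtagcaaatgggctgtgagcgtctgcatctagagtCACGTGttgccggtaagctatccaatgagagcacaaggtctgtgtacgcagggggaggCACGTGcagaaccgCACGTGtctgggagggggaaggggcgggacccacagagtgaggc
The matches describe these windows in GRCm38.p6 and say nothing of binding in these samples.

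Dyrk1a itself was measured by 3 probe sets. The brightest read 8.01, 8.18, 7.92 and 7.83 at P0 and 7.62, 7.57, 7.70 and 7.70 at P7, a decrease of 0.34 (SE 0.09, adjusted p = 0.00472, limma) with no overlap between the ages. The other 2 probe sets gave -0.14 and 0.22, and with the mean of all 3 the difference was -0.09 (adjusted p = 0.485), so the direction depended on the probe set. Among the 11 tested genes of the DYRK, CLK and HIPK kinases, 1 rose (9.09%, against 22.5% of all genes), 3 fell (27.3%, against 18.5%) and 7 did not pass. Their median of -0.10 was -0.19 to -0.15 without P0 replicate 1 or 3 or P7 replicate 2. Hipk3 rose by 0.32, a call lost without P7 replicate 2 (0.27, adjusted p = 0.0583). Dyrk3 fell by 0.37, a call lost without P0 replicate 1, 2 or 3 or P7 replicate 1 or 4 (-0.31 to -0.38, adjusted p = 0.0512 to 0.0958). Clk2 fell by 0.23, a call lost without P0 replicate 1, 2 or 3 or P7 replicate 1, 2 or 3 (-0.19 to -0.23, adjusted p = 0.0513 to 0.0813).

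For pairs of a gene known to act late and a gene known to act early in cortical development, the log2 difference of the later gene minus the earlier was taken within each array, and its change from P0 to P7 was tested by an exact two-sided permutation of 4 arrays against 4. With 70 arrangements the smallest p is 0.0286. Of 15 pairs, 12 could be tested, 10 moved toward the later gene in sign, and 9 reached the smallest p (0.0381 after Benjamini-Hochberg adjustment over the 12). That p means only that the differences at P7 and P0 did not overlap, which also held for the values of 37.9% of all single genes. The later gene of each of these 9 pairs had also risen by itself on the same arrays. The pairs are thus a description and no separate support. The pair of Mbp and Pdgfra, a product of myelination and a receptor of precursors, changed by 3.88. Nefh over Ina changed by 2.33 and Igf1 over Igf2 by 1.46. For Dnmt3a over Dnmt3b the change was 1.24, and for the chloride carriers Slc12a5 over Slc12a2 it was 1.09. On single arrays the latter difference read 0.70, 0.37, 0.28 and 0.41 at P0 and 1.68, 1.49, 1.42 and 1.53 at P7. The P7 arrays thus lay clear of the P0 arrays, with SDs of 0.18 and 0.11. Map1a over Map1b (0.94), Tubb4a over Tubb2b (0.92), Scn1a over Scn3a (0.82) and Rbfox3 over Ptbp1 (0.64) completed the 9. With all probe sets of a gene averaged, these 9 pairs kept their direction and the smallest p, but Mbp over Pdgfra changed by 2.52, Slc12a5 over Slc12a2 by 0.58 and Rbfox3 over Ptbp1 by 1.10. In the last of these, Ptbp1 itself read 9.04, 8.95, 9.05 and 8.90 at P0 and 9.06, 9.23, 8.72 and 8.46 at P7 and did not pass.

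The other 3 pairs did not reach the smallest p. For the vesicular glutamate transporters Slc17a7 over Slc17a6 the change was 0.99 (exact permutation p = 0.0857), with P7 replicate 4 inside the range of P0. For the BAF subunits Ss18l1 over Ss18 it was -0.67 (exact permutation p = 0.0857), and for Actl6b over Actl6a it was -0.36 (exact permutation p = 0.486), both against the order in which these subunits are known to follow each other. Actl6b read 7.35, 7.47, 5.72 and 6.37 at P0 and 5.95, 6.17, 5.46 and 4.997 at P7, and the SD of the pair was 0.97 at P0 and 0.60 at P7. With the replicate number as a block, limma called Slc17a6 (0.43, adjusted p = 0.0147), Ss18l1 (-0.59, adjusted p = 0.000497) and Actl6b (-1.08, adjusted p = 0.000228), none of which passed without it. With probe sets averaged, the change of Ss18l1 over Ss18 was -0.32.

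**Figure D4:**
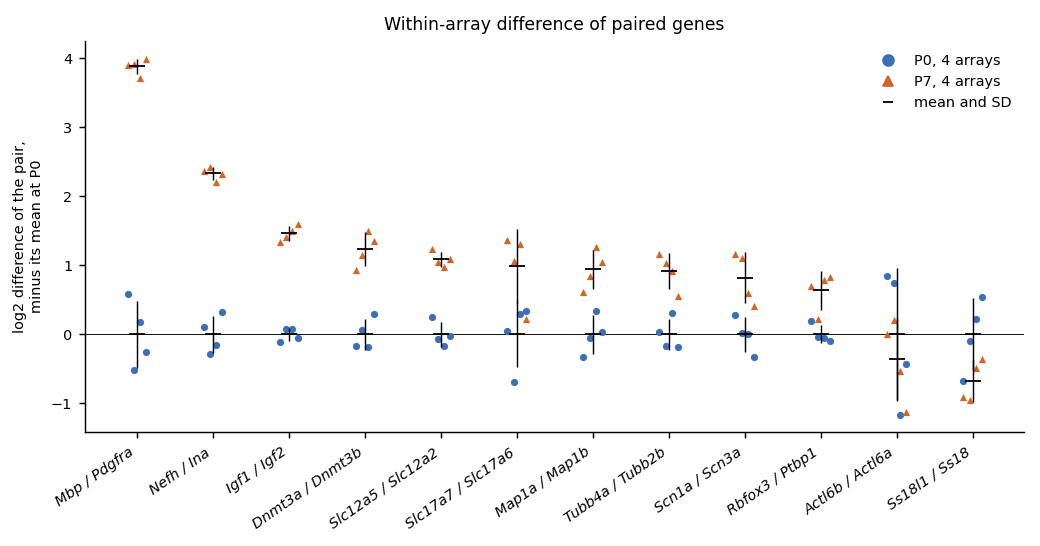
Within-array log2 difference of each gene pair (later gene minus earlier gene), shown after subtracting the mean of its P0 arrays, for the 12 tested pairs. Circles are P0 arrays, triangles P7 arrays, and bars the mean and SD. The pairs run from a change of 3.88 (Mbp and Pdgfra) to -0.67 (Ss18l1 and Ss18), and the ages do not overlap in 9 of the 12.

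The same age difference was measured on the 8 arrays of heterozygous cortex. Its group means share no array with those of wild type, but the estimate of spread and the choice of genes are shared. In heterozygous cortex 6194 genes changed (48.4%), and 4334 of them changed in the same direction in wild-type cortex. That is 82.8% of the wild-type genes and 70% of the heterozygous ones. A single gene changed in opposite directions, Fbxo17 (-0.38 in wild-type and 0.26 in heterozygous cortex). Of the 685 genes that changed at least 2-fold in wild-type cortex, 684 had the same sign in heterozygous cortex and 671 passed the test there. The remaining 1 was Xlr4c, which fell by 1.00, a call lost without P0 replicate 3 or 4 or P7 replicate 2 or 3 (-0.72 to -0.93, adjusted p = 0.0787 to 0.12), and differed by 0.10 in heterozygous cortex. The list medians were 0.83 for presynaptic genes, 0.96 for astrocyte genes and -0.75 for S to M phase genes in heterozygous cortex, where wild type gave 0.76, 1.07 and -0.56. Other lists were less alike: the medians were 0.46 for the circadian clock, 0.30 for ketone and fatty acid use, -0.41 for DYRK, CLK and HIPK kinases, 0.02 for axon guidance and -0.09 for growth factors and receptors in heterozygous cortex, against 0.75, 0.52, -0.10, -0.06 and 0.07. These differences between medians were not tested. In the test of the difference between the 2 age differences, limma called 0 of 12801 genes (0% of those tested), with 995 at an unadjusted p under 0.05 and a lowest adjusted p of 0.228. Gfap differed by 2.59 in wild-type and 3.998 in heterozygous cortex without passing that test (adjusted p = 0.524, limma). The test of age against the 2 subsets of wild-type arrays likewise called 0 genes, with 875 at an unadjusted p under 0.05.

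**Figure D5:**
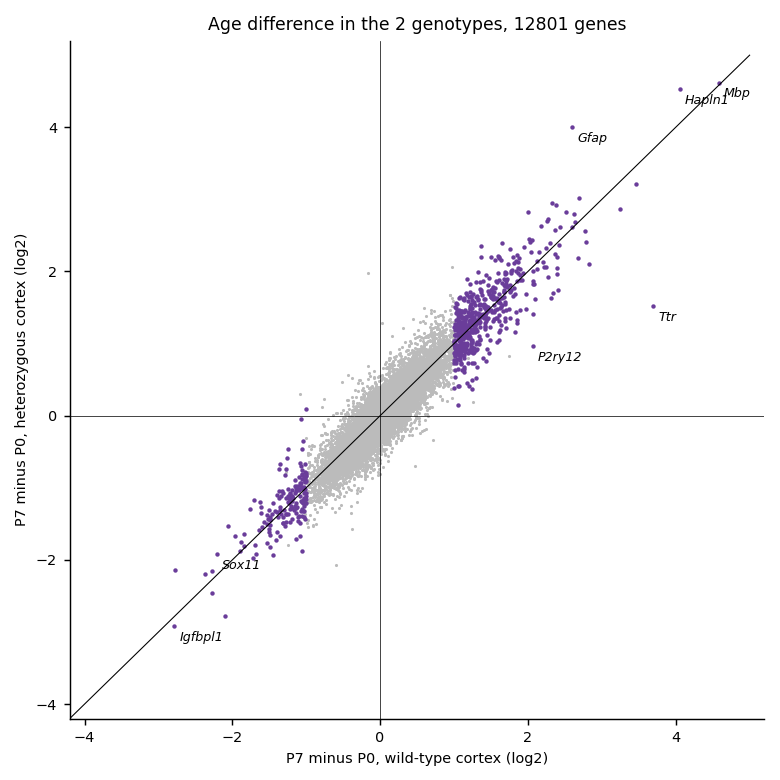
Age difference of each of the 12801 genes (P7 minus P0, log2) in wild-type cortex (horizontal axis) and in heterozygous cortex (vertical axis). Purple points are the 685 genes past 2-fold in wild type, grey points all others, and the diagonal marks equal differences. Of the labelled genes, Ttr, at 3.69 in wild-type and 1.51 in heterozygous cortex, lies farthest below the diagonal.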

How the data were processed

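RNA of cerebral cortex from 16 mice, 4 for each genotype and age, was measured on Affymetrix arrays. The authors deposited log2 values of 45037 probe sets. Per the labels' protocols, RNA was extracted with TriPure, cleaned on RNeasy columns, treated with DNase and labelled from 100 ng in a two-cycle protocol, which can compress or distort ratios. How they were normalized is not named in the labels or the file header. Array medians lay between 5.836 and 5.863.

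Probe sets were named through the platform annotation and RefSeq: 34945 had 1 gene, 932 several and 9160 none, and 34741 matched RefSeq. Of several probe sets of a gene, that with the highest mean over the 16 arrays stood for it. Of 18193 genes, 12801 above a mean log2 of 5.15 (the 40th percentile of probe sets) were tested. limma 3.58.1 in R 4.3.3 fitted 4 group means to the 16 arrays (lmFit, eBayes), with two-sided p-values adjusted by Benjamini-Hochberg over the 12801 genes. Nothing says that mice came from separate litters, so p-values measure the spread between these samples. Gene pairs were tested by enumerating all 70 arrangements in Python 3.11.15 with numpy 2.4.6. The procedure was tested on simulated data, with independent noise on each array and without the split between replicates seen here. With 100 genes changed at each size, it recovered 93% at a log2 change of 1 and 56% at 0.5. Of its calls, 6.29% were false. A gene that did not pass may thus have changed. The number of arrays limits the precision.

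Replicate numbers are shared between the ages. Deviations of same-numbered arrays correlated across ages (r = 0.493, 0.316, 0.250 and 0.402 for numbers 1 to 4). The largest r with an array of another number was 0.363, 0.145, 0.218 and 0.405. A pairing by number thus cannot be told apart from the split between replicates 1 and 2 and replicates 3 and 4. The main comparison has no block, and the permutation of gene pairs is unpaired. The replicate number is a block only among the alternatives.

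The named genes were Dyrk1a, the 12 largest differences in each direction whose ages do not overlap, in each list up to 6 genes that passed and up to 2 that did not or went against the median, and both genes of each pair. Named outside this rule, after their values were seen, were Mki67, Cdk1, Ccnb2, Sox2, Tubb3, Nrcam, Smarca4, Syt1, Snap25, Dlg4, Grik3, Kcnd3, Fezf2, Emx1, Reln, Lhx6, Pvalb, Gad1, Sst, Mag, Slc7a10, Cx3cr1, Cldn5, Col1a1, Ppp1r1b, Drd2, Foxj1, Ciart, Hes1, Mfge8, Homer3, Chrnb2, Elavl4, Snrpn, Fgf13, Ntrk3, Fbxo17 and Xlr4c. Members and lists were chosen with earlier results of these data known. Alternatives changed the normalization, the filter, the choice of probe set, the variance model, the blocks, the sex covariate and the arrays included.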

Additional observations from a re-analysis of the deposited data

Results flagged for a closer look

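Within each age, a value was marked when its gap to the nearest other array exceeded Dixon's critical share of the group's range. This held for 25 of 552 groups of 4 arrays (4.53%), and chance gives about 1 in 20. P0 replicate 2 gave 7 of them, P7 replicate 3 gave 6, and P0 replicate 3 gave 0.

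In P0 replicate 2, Scn1a (7.91), Ebf3 (6.95), Bcl2l2 (9.30) and Calml4 (6.48) stood above the other P0 arrays, and Penk (7.79), Gfap (4.90) and Rxrg (8.40) below them. In P0 replicate 1, Gap43 (12.28) and B2m (8.75) stood above and E2f1 (6.35) below. In P0 replicate 4, Slco1a4 (6.60) stood above and Dnmt1 (10.26) below.

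In P7 replicate 3, Mab21l1 (3.88), Vim (8.65), Sox2 (9.99), Moxd1 (8.19) and Foxc1 (5.36) stood below the other P7 arrays and Arid1a (10.33) above. P7 replicate 1 was low for Cntn1 (12.81) and Gfap (7.30). P7 replicate 2 was high for P2ry12 (7.06) and Calml4 (7.03). P7 replicate 4 was high for Eomes (7.06) and Rora (9.005) and low for Fezf2 (7.59).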

How the results depend on the processing

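The test of whether the age difference differed between genotypes stayed at 0 genes in every alternative in which it was run. These changed the normalization, filter, probe sets, variance model, blocks and sex, or left out each of the 16 arrays. That test was not run within the replicate subsets, and the genotypes were not compared at either age. The count of 5236 changed genes lay between 4181 (within replicates 3 and 4) and 6561 (replicate block) over all alternatives. It lay between 4488 and 5019 when each wild-type array was left out, and was 5080 with only the 8 wild-type arrays. With the replicate number as a block, 3552 genes rose and 3009 fell, 688 of them at least 2-fold, and 7524 changed in heterozygous cortex, and no count moved by over 1.5 times. Of 276 named genes the block ended no call and gave one to 10: Cdh5 (-0.30, adjusted p = 0.0469, limma), Scn3a (-0.31, adjusted p = 0.00639) and the 8 given with their values above. The count past 2-fold fell from 685 to 435 (330 higher and 105 lower) when all probe sets of a gene were averaged, and was 604 (472 higher and 132 lower) with limma's treat test against a 1.5-fold change. Left-out arrays gave 637 to 709. Alternatives for heterozygous cortex, and the Zfp and Polycomb lists, were added after seeing the data.

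Of 5990 alternative values of named genes, 5725 kept their direction and side of the threshold, 205 lost the call, 55 gained it and 5 changed sign. Ss18 (-0.031), Ptbp1 (0.15), Drd2 (0.065) and Foxj1 (0.024), all without a call, changed sign within replicates 1 and 2, and Cacna1h (0.093) without probe sets that can match several transcripts. Of the named genes that had passed, 221 did so with every array left out and 29 did not. Of 226 alternatives for gene pairs, 222 kept their direction and side of the threshold where they were tested, or moved by less than the spread between arrays where they were not. With all probe sets of a gene averaged, tested pairs kept their direction, and the 9 pairs at the smallest p kept that p. The change moved for Mbp over Pdgfra (2.52), Slc12a5 over Slc12a2 (0.58), Igf1 over Igf2 (1.09) and Rbfox3 over Ptbp1 (1.10). It also moved for Ss18l1 over Ss18 (-0.32, exact permutation p = 0.286 in place of 0.0857) and Actl6b over Actl6a (-0.25, exact permutation p = 0.686 in place of 0.486). The other 4, without a test, were Slc17a7 over Slc17a6 (1.54 within replicates 1 and 2, 0.44 within 3 and 4) and Rbfox3 over Ptbp1 (0.38 and 0.89). With 1 array left out, 4 against 3 arrays cannot reach an exact p under 0.05, so these pair values have no test.

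Of 1098 alternative list medians, 992 moved by less than the spread between arrays, 99 moved by more and 7 changed sign, and the cause was not tested. With the higher minimum on mean level, the medians that moved were those of intermediate progenitors (-0.24), cytoskeleton (0.069), upper-layer neurons (-0.39), myelinating oligodendrocytes (1.58), microglia (1.03), endothelium (0.32), mural cells (0.086), striatum (0.68), thalamus hypothalamus and midbrain (0.49), hippocampus (0.55), histones (-0.20), DNA methylation (-0.46), thyroid hormone (1.30) and Zfp genes (-0.27). With no minimum, they were those of intermediate progenitors (-0.15), transmitter receptors (0.31), Cajal-Retzius cells and subplate (-0.071), myelinating oligodendrocytes (0.54), hippocampus (0.55), histones (-0.17), Lin28 and let-7 genes (-0.23), thyroid hormone (0.68) and circadian clock (0.65). With probe sets averaged, they were those of postsynaptic density (0.43), inhibitory postsynapse (0.34), presynaptic vesicles (0.63), calcium signalling (0.79), immediate early genes (0.46), perineuronal matrix (-0.06), upper-layer neurons (-0.18), Cajal-Retzius cells and subplate (0.73), oligodendrocyte precursors (0.63), astrocytes (1.24), endothelium (0.26), sterol synthesis (0.25), ketone and fatty acid use (0.45), BAF complex subunits (-0.39), neuronal RNA-binding proteins (-0.15), Lin28 and let-7 genes (-0.54), complement and MHC class I (0.54) and circadian clock (0.52). Without probe sets that can match several transcripts, they were those of radial glia (-0.20), upper-layer neurons (-0.39), mural cells (0.0091), glycolysis (0.39), DNA methylation (-0.027), neuronal RNA-binding proteins (-0.11), imprinted genes (-0.18) and growth factors and receptors (-0.13). Within replicates 1 and 2, they were those of S to M phase (-0.73), axon guidance (0.019), postsynaptic density (0.63), inhibitory postsynapse (0.52), calcium signalling (1.13), transmitter receptors (0.54), perineuronal matrix (-0.10), myelinating oligodendrocytes (1.00), striatum (0.65), ketone and fatty acid use (0.43), ribosomal proteins (-0.38), circadian clock (0.62) and DYRK CLK and HIPK kinases (-0.25). Within replicates 3 and 4, they were those of S to M phase (-0.34), radial glia (-0.20), cytoskeleton (0.076), glutamate receptors (0.22), voltage-gated channels (0.61), transmitter receptors (0.32), perineuronal matrix (0.60), Cajal-Retzius cells and subplate (0.33), oligodendrocyte precursors (0.71), astrocytes (1.19), striatum (0.43), ketone and fatty acid use (0.60), glycolysis (0.56), DNA methylation (-0.0899), neuronal RNA-binding proteins (-0.25), cell death (-0.12) and circadian clock (0.65). When each of the 8 arrays was left out in turn, medians that moved ran as follows: axon guidance from -0.064 to 0.015, postsynaptic density from 0.52 to 0.62, inhibitory postsynapse from 0.51 to 0.58, calcium signalling from 0.90 to 1.00, immediate early genes from 0.55 to 0.73, perineuronal matrix from 0.10 to 0.52, oligodendrocyte precursors from 0.74 to 0.85, astrocytes from 1.03 to 1.20, striatum from 0.47 to 0.60, ketone and fatty acid use from 0.46 to 0.54, ribosomal proteins from -0.38 to -0.30, DNA methylation from -0.40 to -0.11, neuronal RNA-binding proteins from -0.32 to -0.20, cell death from -0.24 to -0.13, and circadian clock from 0.61 to 0.78. With 1 wild-type array left out, the medians of imprinted genes (-0.10 to -0.004) and of growth factors and receptors (0.06 to 0.11) also varied by over 1.5 times.

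The files hold no probe-level intensity, so signal over background is unknown, and dim genes (log2 under about 5.15) were not tested.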
